A study of Mus musculus with 12 samples.

Results

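The enzymes that methylate lysine 9 of histone H3 (H3K9) and the proteins that read this mark were followed across 12 Affymetrix mouse genome arrays of mouse splenic B cells. The set held 9 genes: the methyltransferases Suv39h2, Setdb1, Setdb2, Ehmt1 and Ehmt2, the heterochromatin protein 1 (HP1) genes Cbx1, Cbx3 and Cbx5, and the corepressor Trim28. Members were chosen by symbol, as the probe sets that the platform annotation assigns to 1 of these genes alone, which gave 23 of 45037 probe sets and 9 of 18193 genes with a probe set of their own. Cbx3 kept 1 probe set, because 4 others were also assigned to another gene and were not used. The probe set with the highest mean over the 12 arrays stands for each gene, and the others are given beside it.

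All arrays measured B220+ cells from spleens of C57BL/6 mice that carried the transgene Tg(IghelMD4)4Ccg, a rearranged B-cell receptor specific for hen egg lysozyme, so most B cells had 1 antigen specificity and no group was free of the transgene. The cells were cultured with an antibody to CD40, the cytokine IL21 and hen egg lysozyme (HEL). The antibody and IL21 stand in for T follicular helper signals, whereas HEL is bound by the transgenic receptor. The 6 groups of 2 arrays were a control, a group labelled as depleted of Jmjd2a (also named Kdm4a) and a group labelled as depleted of Jmjd2c (Kdm4c), each at day 1 and day 3. The labels name siRNA in some places and a virus with shRNA in others. Titles number the arrays as biological replicates but name no separate animals, so the p-values measure the spread between these arrays only.

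Methylated H3K9 is the mark of silent chromatin. SUV39 enzymes write its trimethylated form at pericentromeric repeats, SETDB1 writes it at retroviral elements to which TRIM28 brings it, and the EHMT1 and EHMT2 pair (GLP and G9a) writes the mono- and dimethylated forms. HP1 proteins bind the mark through their chromodomain and hold the chromatin closed, while the JMJD2 demethylases named in the labels remove it. In the B lineage SETDB1 is known for keeping endogenous retroviruses silent.

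Stretches of genome sequence are shown first. They lie upstream of Suv39h2, Cbx5 and Ehmt2, the genes whose change from day 1 to day 3 differed from that of the controls under both labels. Each run covers 250 to 61 bases before 1 annotated transcript start, in RefSeq annotation of GRCm38.p6; for Cbx5 and Ehmt2 that start lies inside the outer bounds of the gene. It was read 5′ to 3′ on the gene's strand. All 9 genes were matched in that promoter set. Suv39h2 lies at chr2:3455815-3474986 and its run at chr2:3475047-3475236 (minus strand), Cbx5 at chr15:103191546-103239904 with its run at chr15:103239913-103240102 (minus strand), and Ehmt2 at chr17:34898463-34914073 with its run at chr17:34898224-34898413 (plus strand).

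Suv39h2: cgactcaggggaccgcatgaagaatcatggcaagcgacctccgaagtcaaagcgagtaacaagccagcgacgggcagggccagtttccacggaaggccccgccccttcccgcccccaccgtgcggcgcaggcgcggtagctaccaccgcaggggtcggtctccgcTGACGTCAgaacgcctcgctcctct
Cbx5: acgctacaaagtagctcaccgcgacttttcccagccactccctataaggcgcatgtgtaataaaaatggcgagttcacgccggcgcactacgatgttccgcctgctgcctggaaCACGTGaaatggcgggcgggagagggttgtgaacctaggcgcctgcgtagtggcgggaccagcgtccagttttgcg
Ehmt2: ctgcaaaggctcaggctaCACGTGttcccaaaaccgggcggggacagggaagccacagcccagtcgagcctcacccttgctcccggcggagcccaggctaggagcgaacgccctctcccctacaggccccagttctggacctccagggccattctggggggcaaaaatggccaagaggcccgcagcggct

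Capitals mark the cyclic-AMP response element TGACGTCA in the Suv39h2 run and the E-box CACGTG in the Cbx5 and Ehmt2 runs. Of 32851 promoter windows of the same length, 0.7% held the first motif and 4.03% held the second. The letters TTTCCCGC, TTTGGCGC, TTTCGCGC and TTTGCCGC, which E2F factors bind, and CCAAT were also searched on both strands, were present in 1.34% and 26.7% of windows, and were not found in these 3 runs. Cbx5 and Ehmt2 each had a second window in that set: the one of Cbx5, at chr15:103215413-103215602, held no E-box, and the one of Ehmt2, at chr17:34898720-34898909, held it. A match describes letters only. Cbx5 and Ehmt2, which share the E-box letters, moved in opposite directions in the control cells, as given below.

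The labels were first checked against the transcripts they name. Kdm4a, on its brighter probe set, read 7.90 and 7.92 log2 units in day 1 controls against 7.94 and 8.09 in Jmjd2a-labelled arrays. At day 3 it read 8.20 and 8.17 in controls against 8.08 and 8.05 in Jmjd2a-labelled arrays. Kdm4c read 7.78 and 7.84 in day 1 controls against 8.02 and 7.98 in Jmjd2c-labelled arrays, and 7.96 and 7.56 in day 3 controls against 7.81 and 7.78. Neither transcript was lower at the test's threshold under its own label, in 0 of 4 tests of the 2 Kdm4a probe sets and 0 of 2 tests of the Kdm4c probe set, so groups are called by their labels throughout.

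One control array stood apart. Replicate 2 of the day 3 controls had the narrowest interquartile range, 3.08 log2 units, where the others had 3.38 to 3.63. Probe sets for 18S ribosomal RNA read 10.7 on it and 11.7 to 12.7 elsewhere. Replicate SDs of all probe sets had a root mean square of 0.259 in the day 3 controls and of 0.115 to 0.157 in the other groups. Over the 9 members the same measure was 0.206 in the day 3 controls and 0.0473 to 0.135 elsewhere. Many of the calls that ended and values that moved by over 1.5 times without this array are given with and without it, but not all. That refit leaves 1 array in the day 3 controls. Day 1 differences do not involve this array, so leaving it out keeps their values. Only the estimate of spread that all groups share changes, and day 1 calls gained that way show no change in the day 1 readings. The share of all probe sets called at day 1 in that refit was not computed.

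From day 1 to day 3 in the control cells, Suv39h2 and Cbx5 fell and Ehmt2 rose. At day 3 the labelled arrays were close to the day 1 controls again, with Suv39h2 higher under both labels and Ehmt2 lower under the Jmjd2c label than in day 3 controls. The Suv39h2 and Cbx5 calls behind this ended without replicate 2 of the day 3 controls. The control changes were then -0.34 for Suv39h2, -0.22 for Cbx5 and 0.79 for Ehmt2. At day 3 the Suv39h2 differences were then 0.29 and 0.36, and that of Ehmt2 under the Jmjd2c label -0.63. Ehmt1, Cbx1, Cbx3 and the brightest probe sets of Setdb1 and Trim28 passed the test in no comparison.

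**Figure D1:**
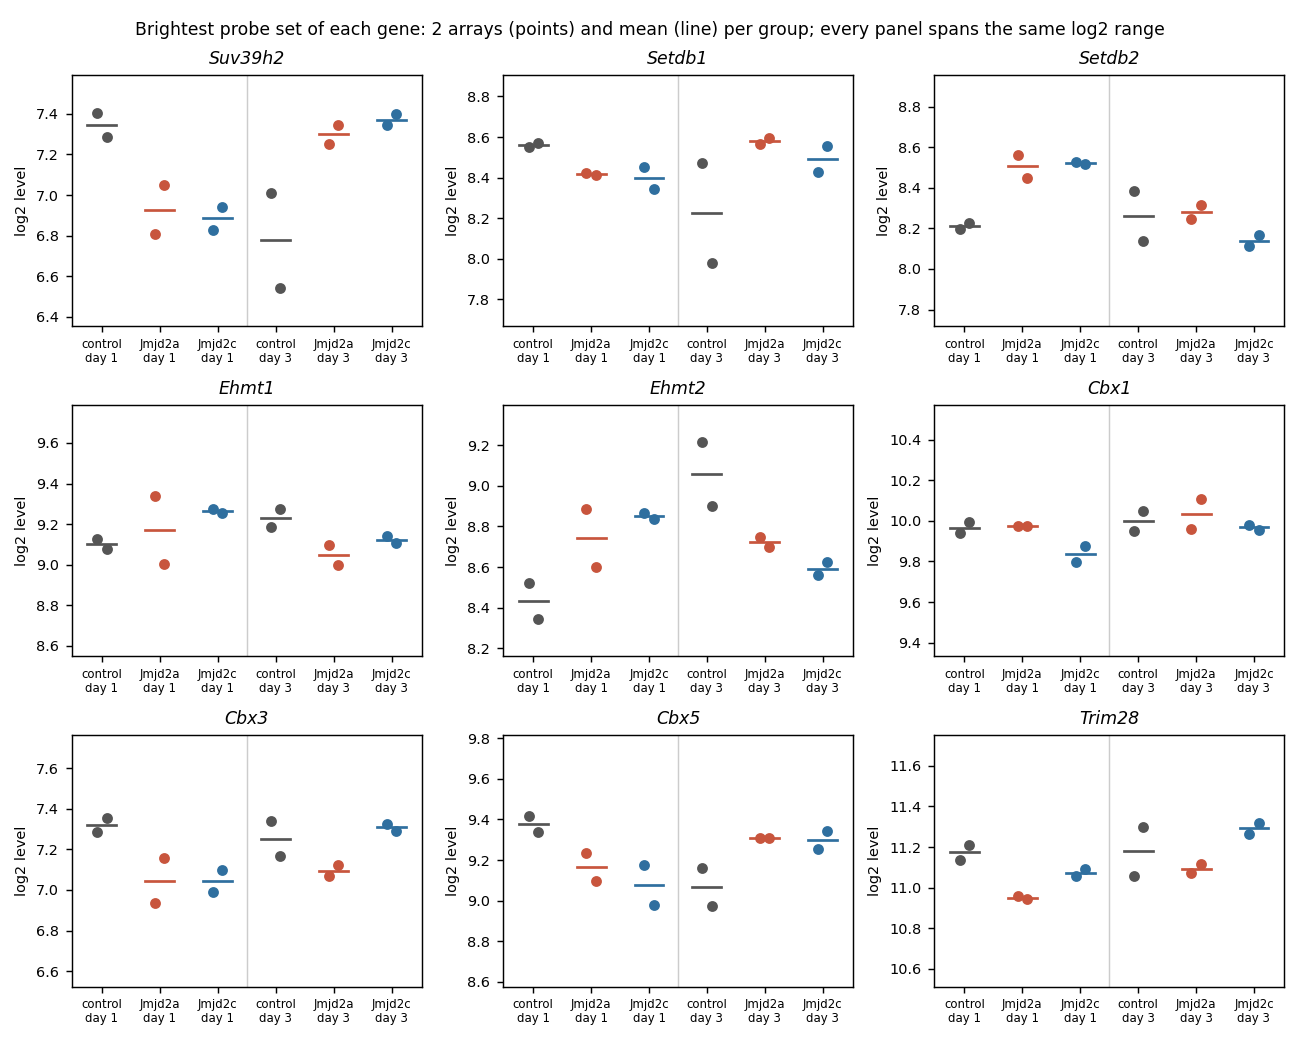
Log2 level of the brightest probe set of each of the 9 genes (vertical axis, the same log2 span in every panel) on every array, by group (horizontal axis), with points for the 2 arrays and a line for their mean. Suv39h2 and Ehmt2 run in opposite directions over the groups: day 3 controls have the lowest mean of Suv39h2, 6.78, and the highest of Ehmt2, 9.06.

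A member counted as called when limma's moderated test of its brightest probe set gave a Benjamini-Hochberg adjusted p under 0.05 over all 45037 probe sets. Against day 1 controls, 0 of 9 members were called in Jmjd2a-labelled arrays, where limma called 7.47% of all probe sets and 6 members had an unadjusted p under 0.05. In Jmjd2c-labelled arrays 1 of 9 was called (Ehmt2, higher), where 11% of all probe sets were called. Against day 3 controls, 1 of 9 was called under the Jmjd2a label (Suv39h2, higher), beside 20.8% of all probe sets, and 2 of 9 under the Jmjd2c label (Suv39h2 higher, Ehmt2 lower), beside 14.3%. From day 1 to day 3, 3 of 9 were called in controls (Ehmt2 higher, Suv39h2 and Cbx5 lower), beside 23.8%, of which 8.46% of all probe sets were higher and 15.4% lower. In the Jmjd2a-labelled cells the count over the days was 0 of 9, beside 5.61% and with 2 members at an unadjusted p under 0.05, and in the Jmjd2c-labelled cells it was 1 of 9 (Setdb2, lower), beside 8.63%.

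The members lie among the brighter probe sets, of which more are called. Among the probe sets at or above the median level, 13.4% and 19.6% were called at day 1 under the Jmjd2a and Jmjd2c labels, 35.2% and 26.2% at day 3, and 40.1% over the days in controls. The figures over the days were 9.92% and 15.2% in the labelled cells. The members' counts, at most 3 of 9, were under this background in each of these comparisons. Their median absolute log2 difference in controls over the days was 0.13 against 0.28 for the brighter probe sets, and at day 1 under the Jmjd2c label it was 0.28 against 0.17. Both labels share their control arrays on each day, so their values stand side by side and are not independent.

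The change over days was then set against that of the controls. This difference of changes was called for 3 of 9 members under the Jmjd2a label, beside 18.3% of all probe sets, and for 4 of 9 under the Jmjd2c label, beside 17.5%. Of the probe sets at or above the median level, 32.4% and 31.3% were called. Suv39h2 and Cbx5 were higher and Ehmt2 lower under both labels, and Setdb2 was lower under the Jmjd2c label. Of the members' 23 probe sets, the 8 called higher under each label belonged to Suv39h2, Setdb1, Cbx5 and Trim28. One of them, Cbx5 probe set 1421933_at, went from 1.03 to 0.64 under the Jmjd2c label without replicate 2 of the day 3 controls. Its call then ended.

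**Figure D2:**
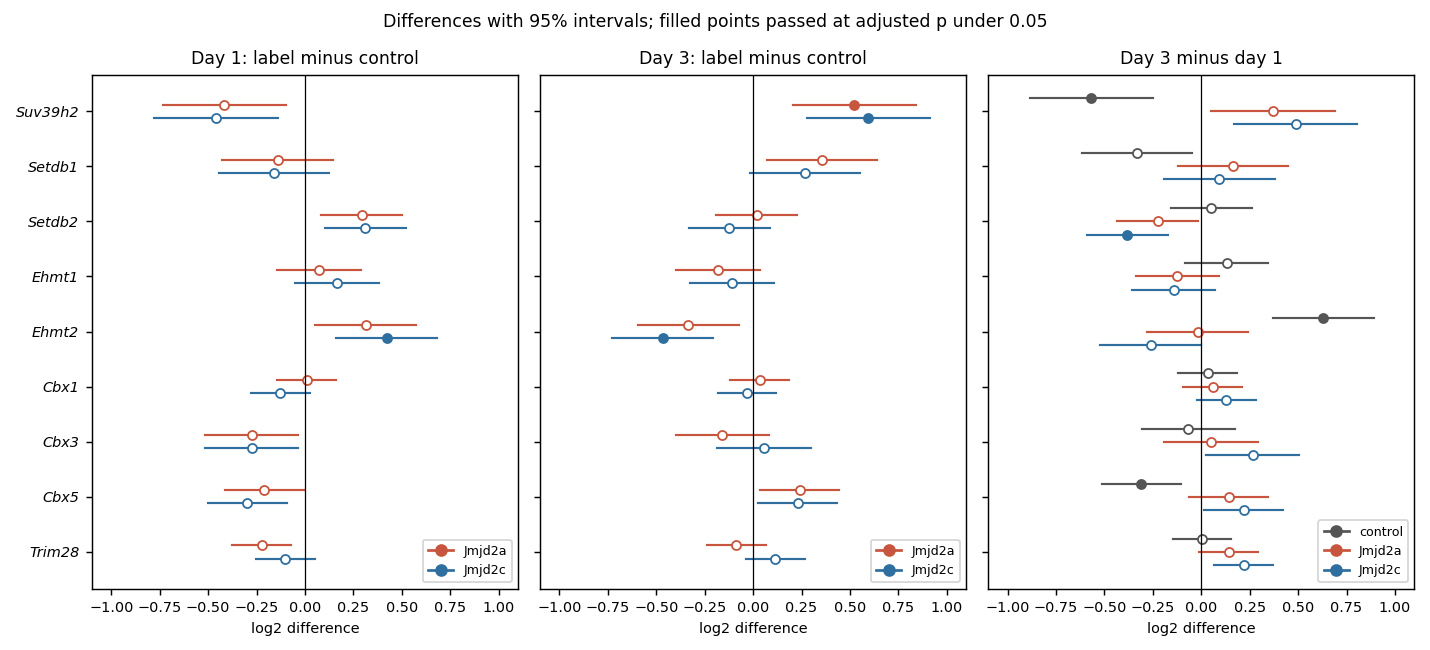
Log2 differences (horizontal axis) of the brightest probe set of each gene (vertical axis) with 95% intervals of the limma model: labelled minus control at day 1 and at day 3, and day 3 minus day 1 within each label. Filled points passed at an adjusted p under 0.05. The 3 filled points of the controls over the days are Suv39h2 at -0.57, Ehmt2 at 0.63 and Cbx5 at -0.31.

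Suv39h2, a writer of H3K9 trimethylation at pericentromeric heterochromatin, was high in day 1 controls and in both day 3 labelled groups and low in the other groups. Its arrays read 7.40 and 7.29 in day 1 controls, 6.81 and 7.05 under the Jmjd2a label and 6.83 and 6.94 under the Jmjd2c label at day 1. At day 3 they read 7.01 and 6.54 in controls, 7.25 and 7.35 under the Jmjd2a label and 7.34 and 7.40 under the Jmjd2c label. The upper 3 groups did not overlap the lower 3, and within each set of 3 neighbouring groups overlapped.

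In controls Suv39h2 fell by 0.57 (SE 0.15, adjusted p = 0.0137, limma) to 67.5% of its day 1 level. At day 3 it was higher by 0.52 (SE 0.15, adjusted p = 0.0247) under the Jmjd2a label and by 0.59 (SE 0.15, adjusted p = 0.0163) under the Jmjd2c label, 144% and 151% of the control level. The day 1 differences of -0.42 (adjusted p = 0.122) and -0.46 (adjusted p = 0.0675) did not pass, although all labelled arrays lay below both controls. The changes over days exceeded the control change by 0.94 (SE 0.21, adjusted p = 0.00703) and 1.05 (SE 0.21, adjusted p = 0.00332), and both stayed called with any 1 of the 8 arrays concerned left out, at adjusted p up to 0.0407 and 0.0219 by limma.

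The single-day calls of Suv39h2 were less stable. Without replicate 2 of the day 3 controls the differences were 0.29 (adjusted p = 0.125) and 0.36 (adjusted p = 0.0566) at day 3 and -0.34 (adjusted p = 0.0642) in controls over the days, while the day 1 differences then passed, at adjusted p = 0.0115 and 0.00504 by limma. The Jmjd2a call at day 3 held in 8 of 11 other settings and ended with array weights, at 1.5-fold or more and with only the arrays compared. The Jmjd2c call at day 3 held in 10 of 11 and the control call in 9 of 11, and both ended with only the arrays compared. Leaving out Jmjd2a day 3 replicate 1 or 2 gave adjusted p = 0.0808 or 0.164, Jmjd2c day 3 replicate 1 or 2 gave 0.08 or 0.125, and control day 1 replicate 1 gave 0.113 for the control change. A second Suv39h2 probe set, 1422979_at, passed in these same comparisons and at day 1 as well. It was lower by 0.63 (adjusted p = 0.00599) and 0.84 (adjusted p = 0.000713) at day 1 under the Jmjd2a and Jmjd2c labels, fell by 0.79 (adjusted p = 0.000365) in controls, and was higher by 0.71 (adjusted p = 0.00113) and 0.45 (adjusted p = 0.0211) at day 3. Without replicate 2 of the day 3 controls the last of these was 0.33 (adjusted p = 0.0621) and the control fall 0.67 (adjusted p = 0.000754). The third, 1436561_at, read 5.46 to 5.77 over all 12 arrays and passed in no comparison.

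Setdb1, the enzyme that TRIM28 brings to retroviral elements, had its lowest reading on 1 control array. The arrays read 8.55 and 8.57 in day 1 controls, 8.43 and 8.41 under the Jmjd2a label and 8.45 and 8.34 under the Jmjd2c label. At day 3 they read 8.47 and 7.98 in controls, 8.57 and 8.60 under the Jmjd2a label and 8.43 and 8.56 under the Jmjd2c label. Apart from replicate 2 of the day 3 controls, every array lay between 8.34 and 8.60.

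No comparison of this Setdb1 probe set passed: the control change was -0.33 (95% interval -0.62 to -0.05, adjusted p = 0.0871) and the day 3 differences were 0.35 (adjusted p = 0.0768) and 0.27 (adjusted p = 0.235) by limma. Without replicate 1 of the day 3 controls, which leaves the low array to stand for that group, they became -0.58 (adjusted p = 0.000157), 0.60 (adjusted p = 0.000141) and 0.51 (adjusted p = 0.000619). Without the low array, replicate 2, they shrank to -0.087 (adjusted p = 0.558), 0.11 (adjusted p = 0.467) and 0.019 (adjusted p = 0.924). Of the 2 dimmer Setdb1 probe sets, 1458215_at fell by 0.57 in controls (adjusted p = 0.00904) and was higher by 0.54 at day 3 under the Jmjd2a label (adjusted p = 0.0145). On that probe set both day 3 controls were low, at 5.13 and 5.41 against 5.84 and 5.83 at day 1. Without replicate 2 of the day 3 controls this fall was 0.70 (adjusted p = 0.00281), and the Jmjd2c difference at day 3 went from 0.31 (adjusted p = 0.169) to 0.45 (adjusted p = 0.0459). The other, 1416670_at, passed in no comparison.

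Setdb2, a related enzyme also assigned to H3K9 methylation, was highest in the day 1 labelled arrays. Its single probe set read 8.20 and 8.23 in day 1 controls, 8.56 and 8.45 under the Jmjd2a label and 8.53 and 8.52 under the Jmjd2c label. The day 3 readings were 8.38 and 8.14 in controls, 8.25 and 8.31 under the Jmjd2a label and 8.11 and 8.17 under the Jmjd2c label. All 4 day 1 labelled arrays lay above the other 8.

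Setdb2 fell by 0.38 (SE 0.10, adjusted p = 0.0283, limma) from day 1 to day 3 under the Jmjd2c label, and this change lay 0.43 (SE 0.14, adjusted p = 0.0456) below that of controls. Leaving out any 1 of the 4 Jmjd2c arrays ended the call over the days, at adjusted p from 0.115 to 0.199 by limma, and leaving out any of these or of the day 1 controls ended the call against the control change, as did 5 of 11 other settings. The day 1 differences of 0.29 (adjusted p = 0.0943, limma) and 0.31 (adjusted p = 0.0595) did not pass. Without replicate 2 of the day 3 controls, an array of neither group, both stayed the same and only the shared estimate of spread changed.

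Ehmt2, the catalytic partner known as G9a, went the other way from Suv39h2. The arrays read 8.52 and 8.34 in day 1 controls, 8.88 and 8.60 under the Jmjd2a label and 8.87 and 8.84 under the Jmjd2c label. At day 3 they read 9.22 and 8.90 in controls, 8.75 and 8.70 under the Jmjd2a label and 8.56 and 8.62 under the Jmjd2c label. Day 3 controls lay above every other array and day 1 controls below every other array.

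In controls Ehmt2 rose by 0.63 (SE 0.12, adjusted p = 0.00216, limma) to 155% of its day 1 level, and the call held with each of the 4 control arrays left out, at adjusted p up to 0.0334. With the mean of both Ehmt2 probe sets the rise was 0.40, and it passed. Under the Jmjd2c label it was higher by 0.42 (SE 0.12, adjusted p = 0.0415) at day 1 and lower by 0.47 (SE 0.12, adjusted p = 0.02) at day 3. The day 3 call held in 7 of 11 other settings, and array weights and the mean of both Ehmt2 probe sets were among those that ended it. The day 1 call ended in 4 of 11 other settings, median centring among them, and without any 1 of the 4 arrays compared, at adjusted p from 0.0947 to 0.295, and the day 3 call ended without control replicate 1 (adjusted p = 0.0559) or either Jmjd2c array (0.135 and 0.0974). The Jmjd2a differences of 0.31 at day 1 (adjusted p = 0.16) and -0.34 at day 3 (adjusted p = 0.0679) had the same signs and did not pass, and without replicate 2 of the day 3 controls both passed, at adjusted p = 0.0359 and 0.00796.

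The Ehmt2 change over days was lower than that of controls by 0.65 (SE 0.17, adjusted p = 0.018, limma) under the Jmjd2a label and by 0.89 (SE 0.17, adjusted p = 0.00272) under the Jmjd2c label. The second held with any 1 of 8 arrays left out. The first ended in 4 of 8 cases, without control day 1 replicate 2 (adjusted p = 0.0884), Jmjd2a day 1 replicate 1 (0.0771) or either Jmjd2a day 3 array (0.053 and 0.0779), and also with the mean of both Ehmt2 probe sets. The second Ehmt2 probe set, 1426888_at, read 5.18 to 5.67 and passed in no comparison.

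Ehmt1, the GLP partner of G9a, spanned 0.34 log2 units over all 12 arrays and passed in no comparison. In day 1 controls it read 9.12 and 9.07, and in day 3 controls 9.19 and 9.27. Jmjd2a-labelled arrays read 9.34 and 9.0045 at day 1 and 9.09 and 9.0002 at day 3, and Jmjd2c-labelled arrays 9.28 and 9.26, then 9.14 and 9.11. All neighbouring groups overlapped when ordered by their means. Its control change was 0.13 (95% interval -0.09 to 0.35, limma). This leaves room for a rise as large as the fall of Cbx5, but not for such a fall or for the rise of Ehmt2. Without Jmjd2a day 1 replicate 2 its change over days lay 0.42 below that of controls (adjusted p = 0.029), against 0.25 below (adjusted p = 0.267) with all arrays.

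Of the HP1 genes, Cbx5, which encodes HP1 alpha, was the one called. Its brightest probe set read 9.42 and 9.34 in day 1 controls, 9.24 and 9.10 under the Jmjd2a label and 9.18 and 8.98 under the Jmjd2c label. By day 3 the readings were 9.16 and 8.98 in controls, 9.31 and 9.31 under the Jmjd2a label and 9.25 and 9.34 under the Jmjd2c label. Day 1 controls had the highest mean, 9.38, and day 3 controls overlapped the day 1 labelled arrays at the low end.

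In controls Cbx5 fell by 0.31 (SE 0.09, adjusted p = 0.0305, limma) to 80.7% of its day 1 level. Its changes over days were higher than that of controls by 0.45 (SE 0.13, adjusted p = 0.0323) under the Jmjd2a label and by 0.53 (SE 0.13, adjusted p = 0.0145) under the Jmjd2c label. The control call ended without day 1 replicate 1 or 2 (adjusted p = 0.198 and 0.0802) or day 3 replicate 2 (0.133). It also ended in 5 of 11 other settings, quantile normalization and array weights among them, with values from -0.50 to -0.17 over the 11. The Jmjd2a call against the control change ended in 4 of 11, quantile normalization among them, with values from 0.31 to 0.67. The 2 later calls stood with 2 and 5 of 8 arrays left out in turn, and the highest adjusted p values were 0.134 and 0.0775. The day 1 difference under the Jmjd2c label was -0.30 (adjusted p = 0.0631) and passed without replicate 2 of the day 3 controls (0.0152) or Jmjd2c day 1 replicate 1 (0.0481). The day 3 differences of 0.24 (adjusted p = 0.0915, limma) and 0.23 (adjusted p = 0.14) did not pass. They shrank to 0.15 and 0.14 without replicate 2 of the day 3 controls, the array that stood apart. Without replicate 1, which leaves that array to stand for the group, they were 0.33 and 0.32. The changes over days against that of controls were 0.36 and 0.44 without replicate 2, under the Jmjd2a and Jmjd2c labels. The Jmjd2a call was among those that ended without that array.

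Of 4 dimmer Cbx5 probe sets, 3 fell further in controls than the brightest. Probe set 1421934_at read 7.81 and 7.90 in day 1 controls against 7.30 and 7.01 in day 3 controls, a fall of 0.70 (adjusted p = 0.000603, limma). At day 3 it was higher by 0.62 (adjusted p = 0.00193) under the Jmjd2a label and by 0.56 (adjusted p = 0.00422) under the Jmjd2c label. Probe set 1450416_at fell by 0.66 in controls (adjusted p = 0.00109) and 1421933_at by 1.00 (adjusted p = 0.00653). Without replicate 2 of the day 3 controls the last fall was 0.61 (adjusted p = 0.0368), and the other 2 remained called. All 3 were lower at day 1 under the Jmjd2c label, by 0.39 (adjusted p = 0.0414), 0.42 (adjusted p = 0.0333) and 0.80 (adjusted p = 0.0417). The last, 1421932_at, read 4.60 to 5.01, passed in no comparison and had a control change of 0.14, opposite in sign.

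Cbx1, which encodes HP1 beta, held the narrowest range of the 3 HP1 genes, 9.80 to 10.11 over 12 arrays. It read 9.94 and 10.00 in day 1 controls and 9.95 and 10.05 in day 3 controls, so these groups overlapped. Jmjd2a-labelled arrays read 9.98 and 9.97, then 9.96 and 10.11, and Jmjd2c-labelled arrays 9.80 and 9.88, then 9.98 and 9.96. None of its 5 probe sets passed in any comparison. The control change of the brightest was 0.03 (95% interval -0.12 to 0.19, limma), an interval that excludes the fall of 0.31 measured for Cbx5. The dimmer Cbx1 probe sets changed by -0.18, -0.37, -0.25 and -0.04 in controls, so this contrast with Cbx5 rests on the brightest probe set.

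Cbx3, which encodes HP1 gamma, read 7.29 and 7.35 in day 1 controls, 6.93 and 7.16 under the Jmjd2a label and 6.99 and 7.10 under the Jmjd2c label. Day 3 readings were 7.34 and 7.17 in controls, 7.07 and 7.12 under the Jmjd2a label and 7.33 and 7.29 under the Jmjd2c label. Day 1 labelled arrays lay below both day 1 controls, with differences of -0.28 under each label (adjusted p = 0.185 and 0.156, limma), which did not pass. Without replicate 2 of the day 3 controls the Jmjd2c difference reached an adjusted p of 0.05. The change over days under the Jmjd2c label passed against that of controls without day 3 control replicate 1, by 0.42 (adjusted p = 0.0421).

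Trim28, the corepressor that links zinc finger proteins to SETDB1 and HP1, gave different answers on its 2 probe sets. The brighter, 1456308_x_at, read 11.14 and 11.21 in day 1 controls, 10.96 and 10.94 under the Jmjd2a label and 11.06 and 11.09 under the Jmjd2c label. At day 3 it read 11.06 and 11.30 in controls, 11.07 and 11.11 under the Jmjd2a label and 11.26 and 11.32 under the Jmjd2c label. The Jmjd2a arrays of day 1 were the lowest, by 0.22 below controls (adjusted p = 0.0799, limma), and day 3 controls overlapped the arrays of both labels.

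The dimmer Trim28 probe set, 1415869_a_at, fell in controls from 9.95 and 9.85 to 9.54 and 9.51, by 0.38 (SE 0.07, adjusted p = 0.00122, limma). It read 9.94 and 9.94 at day 3 under the Jmjd2a label and 9.91 and 9.97 under the Jmjd2c label, higher than controls by 0.41 (adjusted p = 0.000904) and 0.42 (adjusted p = 0.00101). The brighter probe set changed by 0.00 in controls (95% interval -0.15 to 0.16), so no direction is given for Trim28. That value was -0.12 without day 3 control replicate 2, the array that stood apart, and 0.12 without replicate 1. Its changes over days exceeded the control change by 0.14 and 0.21 under the Jmjd2a and Jmjd2c labels. These were 0.26 and 0.34 without replicate 2, and 0.016 and 0.093 without replicate 1. The dimmer probe set had 0.51 and 0.49 with all arrays. Left-out control arrays also moved the brighter probe set across the threshold in both directions at day 3: -0.21 (adjusted p = 0.00966) under the Jmjd2a label without replicate 1 and 0.23 (adjusted p = 0.0105) under the Jmjd2c label without replicate 2.

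**Figure D3:**
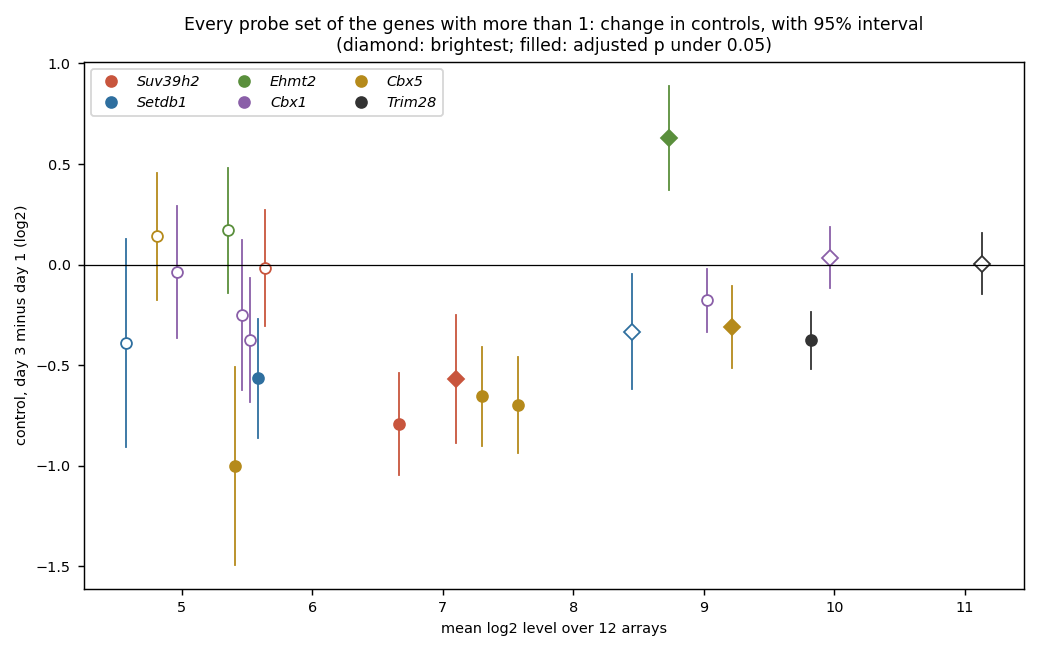
Change of the controls from day 1 to day 3 (vertical axis, log2 with 95% interval) against the mean log2 level over 12 arrays (horizontal axis) for every probe set of the 6 genes with more than 1. Diamonds are the brightest probe set of a gene and filled symbols passed at an adjusted p under 0.05. The Trim28 probe sets lie at 0.00 and -0.38, and of the Cbx5 probe sets that passed, the brightest has the smallest fall.

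Over the 9 members the groups fell into a pattern. The mean absolute log2 difference from day 1 controls was 0.062 for the Jmjd2c-labelled arrays of day 3 and 0.103 for the Jmjd2a-labelled arrays of day 3. It was 0.236 for day 3 controls, 0.217 for the Jmjd2a-labelled arrays of day 1 and 0.258 for the Jmjd2c-labelled arrays of day 1. The same measure over all brighter probe sets was 0.142, 0.107, 0.383, 0.233 and 0.258 in that order. Day 3 labelled arrays were thus nearer to the day 1 controls than the day 3 controls were, for the members and for the brighter probe sets alike.

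No member separated the labels from each other. Jmjd2a and Jmjd2c arrays were compared directly, and limma called 0 of 45037 probe sets at day 1 and 0 at day 3, with 1081 and 2571 probe sets at an unadjusted p under 0.05. Array weights gave 0 and 26 calls. These weights came out equal for both arrays of each group, 0.28 for both day 3 controls, so they cannot single out 1 array. At day 1 same-numbered arrays of both labels deviated together (r = 0.39), which the direct comparison left out. At day 3 Trim28 was lower under the Jmjd2a label than under the Jmjd2c label by 0.20 (95% interval -0.35 to -0.05, adjusted p = 0.852), the one member of 9 with an unadjusted p under 0.05. The intervals of the others do not show that the labels act alike; for Cbx3 it ran from -0.46 to 0.03.

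Suv39h2, Setdb1 and Cbx5 moved together over the 12 arrays, with Pearson correlations of 0.81 for each pair of them. Suv39h2 ran against Ehmt1 (-0.75) and Ehmt2 (-0.63), and Setdb2 against Trim28 (-0.83). These correlations describe 12 arrays that share culture, day and label, and carry no test. Replicate 2 of the day 3 controls was the lowest array for Suv39h2, Setdb1 and Cbx5. Setdb1 read 7.98 on it and 8.34 to 8.60 elsewhere, and correlations without that array were not computed. Among all other genes above the median level, the nearest pattern to Suv39h2 was that of Znhit1 (r = 0.98), to Ehmt2 that of Rassf4 (r = 0.97) and to Cbx5 that of Plaa (r = 0.98). Gfm2 was nearest to Setdb1 (r = 0.99), Kdm5c to Setdb2 (r = 0.98) and Tmem160 to Trim28 (r = 0.93). The nearest genes to Ehmt1, Cbx1 and Cbx3 were Cotl1 (r = 0.92), Atp5pb (r = 0.88) and Zfp444 (r = 0.90).

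Partners of these enzymes were read beside the 23.8% of all probe sets, and 40.1% of the brighter ones, that limma called in controls over the days. Of 5 measured partners of the G9a and GLP pair, 3 fell in controls: Cdyl, a corepressor that binds the mark, by 0.95 (adjusted p = 0.000125, limma), the zinc finger protein Zfp644 by 0.70 (adjusted p = 0.0362), and its complex partner Wiz by 0.40 (adjusted p = 0.0315). Zfp644 is named for completeness, chosen after its values were seen. Without replicate 2 of the day 3 controls the fall of Cdyl was 0.74, and those of Zfp644 and Wiz no longer passed, at 0.20 and 0.28. At day 3 Cdyl was higher by 0.94 (adjusted p = 0.000206) and 0.80 (adjusted p = 0.000763) under the Jmjd2a and Jmjd2c labels, and without that array by 0.73 (adjusted p = 9.65e-05) and 0.59 (adjusted p = 0.00047). The list's median in controls was -0.40, or -0.20 without the array, against 0.04 for all probe sets with it.

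Of 7 partners of SETDB1 and the HUSH silencing complex, 3 fell and 1 rose in controls, 4 of 7 in all. The HUSH subunits Pphln1 and Tasor fell by 0.48 (adjusted p = 0.006, limma) and 0.44 (adjusted p = 0.0067), and Resf1, a factor of retroviral silencing, rose by 0.45 (adjusted p = 0.000687). Atf7ip, which stabilises SETDB1, was the one called at day 1, higher by 0.52 (adjusted p = 0.00621) under the Jmjd2a label and by 0.62 (adjusted p = 0.00149) under the Jmjd2c label. The list's median was -0.06 in controls, or 0.02 without replicate 2 of the day 3 controls. Of 3 other H3K9 methyltransferase genes, Prdm2 fell by 0.76 in controls (adjusted p = 0.00331) and was higher by 0.74 at day 3 under the Jmjd2a label (adjusted p = 0.00502). The day 3 controls read 7.94 and 7.30 for Prdm2, and without the second array it fell by 0.44 (adjusted p = 0.00102) and was higher by 0.42 (adjusted p = 0.00196).

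Of 19 partners of HP1 and TRIM28, 5 rose and 6 fell in controls, with a median of 0.01, or -0.0034 without replicate 2 of the day 3 controls. The chromosomal passenger subunit Incenp and the cohesin protector Sgo1 rose by 0.83 (adjusted p = 7.01e-05, limma) and 0.59 (adjusted p = 0.000438). Uhrf1, which reads methylated H3K9 for DNA methylation, and the chromatin assembly subunit Chaf1b fell by 0.74 (adjusted p = 0.000459) and 0.61 (adjusted p = 0.0012). At day 1, Senp7, a SUMO protease that acts on HP1 alpha, was higher by 0.72 (adjusted p = 0.00406) and 0.68 (adjusted p = 0.0039), and the helicase Hells lower by 0.41 (adjusted p = 0.00254) and 0.52 (adjusted p = 0.000352), under the Jmjd2a and Jmjd2c labels.

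Of 11 H3K9 demethylases, 4 were higher at day 1 under each label and none was lower. Of all probe sets, 4.23% and 5.32% were higher. Kdm7a, a demethylase of H3K9 and H3K27, was higher by 1.39 (adjusted p = 0.000481, limma) under the Jmjd2a label, and its adjusted p under the Jmjd2c label was 0.000191. Jmjd1c was higher by 0.54 (adjusted p = 0.00176) under the Jmjd2a label, and the related Kdm3b by 0.47 (adjusted p = 0.00277) under the Jmjd2c label. The list's medians were 0.19 and 0.18 against -0.04 and -0.03 for all probe sets. At day 3, 1 gene was higher under the Jmjd2a label (Phf8, by 0.33, adjusted p = 0.03, but 0.27 and 0.0892 without replicate 2 of the day 3 controls) and 0 were called under the Jmjd2c label.

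Genes of DNA replication and division were lower at day 1 under both labels. Of 21 such genes, 16 were lower under the Jmjd2a label and 18 under the Jmjd2c label, and 0 were higher, beside 3.25% and 5.69% of all probe sets lower. The ribonucleotide reductase subunit Rrm2 was lower by 0.39 (adjusted p = 0.000396, limma) and 0.41 (adjusted p = 0.000208). In controls over the days 11 rose and 9 fell: Mki67 and Ccna2, of dividing cells, rose by 1.26 (adjusted p = 1.16e-07) and 1.24 (adjusted p = 4.11e-07), while the replicative helicase subunits Mcm4 and Mcm2 fell by 0.60 (adjusted p = 1.38e-06) and 1.18 (adjusted p = 6.34e-06). Suv39h2 and Cbx5 fell where the helicase subunits fell, and the part of cell cycle genes in their change was not tested.

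**Figure D4:**
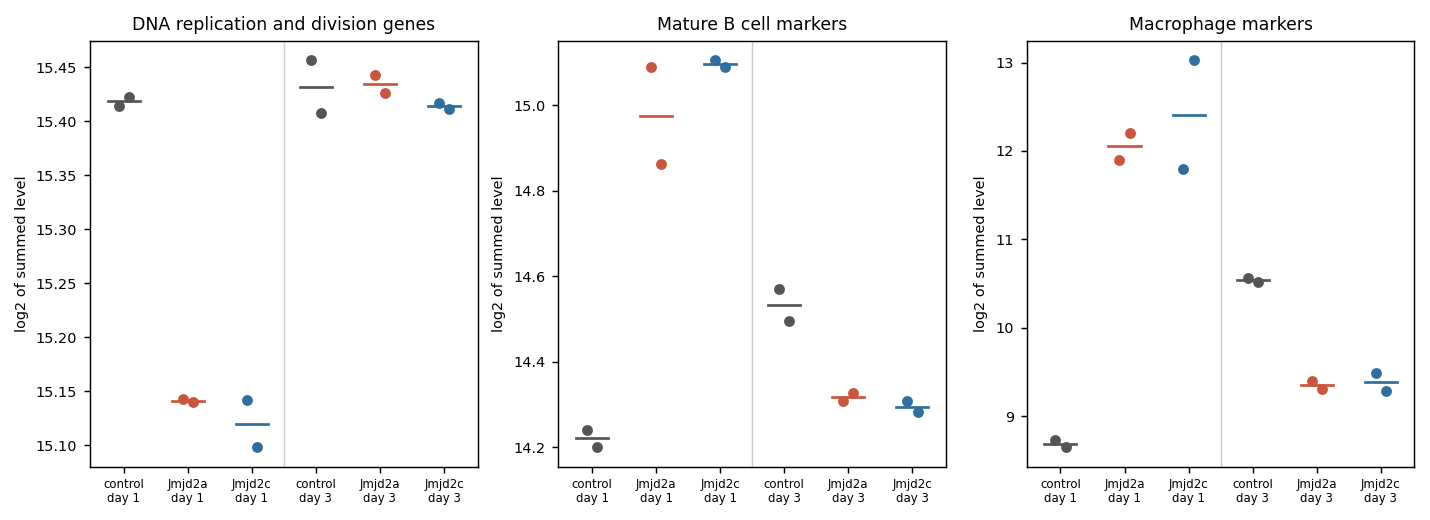
Log2 of the summed linear level (vertical axes, which differ between panels) of 21 replication and division genes, 7 mature B-cell markers and 9 macrophage markers on every array, by group (horizontal axis), with points for the 2 arrays and a line for their mean. The day 1 labelled arrays are lowest for the first list and highest for the other 2, with macrophage sums of 11.8 to 13.0 against 8.65 to 8.73 in day 1 controls.

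Markers of other cell types moved with the same groups. All 9 macrophage markers were higher at day 1 under each label, with a log2 summed level of 8.65 to 8.73 in day 1 controls, 11.9 to 12.2 under the Jmjd2a label and 11.8 to 13.0 under the Jmjd2c label. At day 3 the sum was 10.5 to 10.6 in controls, 9.31 to 9.40 under the Jmjd2a label and 9.29 to 9.48 under the Jmjd2c label. In controls over the days 8 of 9 rose. The adhesion molecule Vcam1 had a mean of 3.08 in day 1 controls, under the median probe set level of 5.22, and of 9.54 and 9.90 in the labelled arrays. Groups with low macrophage sums were those with high Suv39h2 and Cbx5, and the part of these cells in the members' differences was not tested.

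Mature B-cell markers differed in level, and 7 of 8 named ones were measured. Over 12 arrays Ptprc had a mean of 13.2, Cd79b of 11.9 and Ms4a1 of 11.8. Cd79a and Pax5 had means of 7.41 and 7.09, above the median probe set level of 5.22. Of 7 markers, 6 were higher at day 1 under each label, with sums of 14.2 in day 1 controls, 14.9 to 15.1 under the Jmjd2a label and 15.1 on both Jmjd2c-labelled arrays. Pax5, the B-lineage factor, had group means of 7.03 to 7.15. Neutrophil marker sums were spread between the arrays of a group, from 8.25 to 11.7 under the Jmjd2a label and from 8.21 to 12.7 under the Jmjd2c label at day 1, while none of the 5 was called. Replicate 2 was the higher array under both labels. At day 1 under the Jmjd2a and Jmjd2c labels, 4 and 5 of 5 natural killer cell markers, 2 and 2 of 5 T-cell markers, 2 and 3 of 4 erythroid markers and 1 and 2 of 5 dendritic cell markers were higher. In controls over the days 3 of 5 natural killer cell markers rose and none fell, and 3 of 5 dendritic cell markers rose and 1 fell. The natural killer sums were 7.60 to 7.77 in day 1 controls and 11.1 to 11.2 in day 3 controls, with the other groups between 8.99 and 9.98. Dendritic cell sums were 7.93 to 7.98 in day 1 controls and 9.13 to 9.47 in day 3 controls, with the other groups between 8.23 and 8.58. Ehmt2 was also lowest in day 1 controls and highest in day 3 controls, and the part of these cells in its difference was not tested. Plasma-cell markers were mixed in controls over the days, with 2 of 6 higher and 1 lower. The arrays measured whole cultures, so fewer cells of a type and less RNA per cell cannot be told apart.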

How the data were processed

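The 12 arrays measured biotin-labelled cRNA from total RNA of cultured mouse B cells. The authors deposited 1 log2 value per probe set and array; their normalization is not given in the sources used. Of 45101 probe sets, 64 controls were dropped. Of the 45037 tested, 34945 named 1 gene, 932 several and 9160 none in the platform annotation. Precision is limited by the 2 arrays per group.

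All probe sets entered a model of 6 group means in limma 3.58.1 (R 4.3.3). The variances were moderated along the intensity (6 residual and 5.85 prior degrees of freedom). A difference passed at a Benjamini-Hochberg adjusted p under 0.05 over all probe sets. The model was tested on simulated data. Plots used matplotlib 3.10.9 (Python 3.11.15). Titles number the replicates 1 and 2 in each group. Same-numbered arrays deviated together, with a correlation over 0.1, in 1 of 15 pairs of groups, and no pairing was used. That pair was the Jmjd2a- and Jmjd2c-labelled arrays of day 1 (r = 0.39), so their direct comparison left this pairing out.

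From each pathway list at most 2 genes per direction and comparison are named, those of smallest p, and for each member the gene of highest correlation among 3 found. Members and lists were chosen with earlier results of these data known. Alternatives were quantile normalization, centring, a filter on dim probe sets, no trend, array weights, 1 probe set per gene, the mean of a gene's probe sets, other thresholds, a replicate block, smaller fits and leaving out each array. Array weights were equal for both arrays of a group, so that setting weighted groups and not single arrays. The day 0 cells that the series mentions were not analysed here.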

Additional observations from a re-analysis of the deposited data

Results flagged for a closer look

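Members whose change from day 1 to day 3 differed from that of the control cells, by limma's test of the difference of changes, are listed here with their log2 values. Suv39h2 stood 0.94 above the control change under the Jmjd2a label (SE 0.21, adjusted p = 0.00703) and 1.05 above it under the Jmjd2c label (SE 0.21, adjusted p = 0.00332). Cbx5 stood 0.45 (SE 0.13, adjusted p = 0.0323) and 0.53 (SE 0.13, adjusted p = 0.0145) above it. Ehmt2 had values of -0.65 (SE 0.17, adjusted p = 0.018) and -0.89 (SE 0.17, adjusted p = 0.00272). Setdb2 had a value of -0.43 under the Jmjd2c label (SE 0.14, adjusted p = 0.0456). In each case both labels share the control arrays, one of which stood apart. Left without that array, the Cbx5 value under the Jmjd2a label was 0.36 and no longer passed.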

How the results depend on the processing

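Of the 7 differences of changes that passed, those of Suv39h2 under both labels and of Ehmt2 under the Jmjd2c label passed under each of 11 alternatives and with each of 8 arrays left out.

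The share of all probe sets called moved with the setting. At day 1 under the Jmjd2a label it went from 7.47% to 9.28% with quantile normalization and 14.2% with array weights. At day 1 under the Jmjd2c label it went from 11% to 12.8% and 18.6%, in that order. There it was 23% of those kept without dim probe sets and 17.5% with one probe set per gene. It was 10.3% with median centring and 7.66% without the trend. Counts of members called moved as follows. At day 1 under the Jmjd2a label 0 members became 2 with quantile normalization, 4 with array weights, 2 at an adjusted p under 0.10, 1 with the replicate block and 1 when only the arrays compared were fitted. At day 1 under the Jmjd2c label 1 became 4 with quantile normalization, without dim probe sets, with one probe set per gene, at an adjusted p under 0.10 and with only the arrays compared, 5 with array weights, 2 with the replicate block, and 0 with median centring, without the trend and at 1.5-fold or more. At day 3 under the Jmjd2a label 1 became 3 with quantile normalization, 2 without dim probe sets and with the replicate block, 4 at an adjusted p under 0.10, and 0 with array weights, at 1.5-fold or more and with only the arrays compared. At day 3 under the Jmjd2c label 2 became 1 with array weights and at 1.5-fold or more, and 0 with only the arrays compared. In controls over the days 3 became 5 with the mean of all probe sets, 4 at an adjusted p under 0.10, 2 with quantile normalization, without the trend and with array weights, and 1 at 1.5-fold or more and with only the arrays compared. Over the days 0 became 1 with array weights under the Jmjd2a label. Under the Jmjd2c label 1 became 3 with quantile normalization, array weights and an adjusted p under 0.10, 2 without dim probe sets, with one probe set per gene and with the replicate block, 4 with only the arrays compared, and 0 at 1.5-fold or more. The difference of changes under the Jmjd2a label went from 3 to 1 with only the arrays compared, 2 without the trend and at 1.5-fold or more, and 4 with array weights, the mean of all probe sets and an adjusted p under 0.10. Under the Jmjd2c label it went from 4 to 2 at 1.5-fold or more, 3 with median centring, without the trend, with the replicate block and with only the arrays compared, and 6 with the mean of all probe sets. Jmjd2a against Jmjd2c at day 3 went from 0 to 1 with only the arrays compared. The share of all probe sets moved here too. With array weights it went from 20.8% to 12.7% and 14.3% to 9.13% at day 3 under the Jmjd2a and Jmjd2c labels. Over the days it went from 23.8% to 15.9% in controls, 5.61% to 11.8% and 8.63% to 16.6% under those labels. Without dim probe sets it was 38.1% at day 3 under the Jmjd2a label. No share was computed for other thresholds, the mean of probe sets or the smaller fits. By replicate number, arrays deviated together in 1 of 15 pairs of groups, the Jmjd2a- and Jmjd2c-labelled arrays of day 1 (r = 0.39). Refits of the partner lists and of every member probe set without day 3 control replicate 2 were chosen after seeing the data.

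With each array left out, the number of members called moved in every comparison with controls and in every comparison over the days. Each of these refits leaves 1 array in a group, so their counts are not given.

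Some small differences that had not passed changed sign. With quantile normalization Setdb2 and Cbx1 read -0.14 and -0.045 at day 3 under the Jmjd2a label, Cbx3 -0.029 at day 3 under the Jmjd2c label and 0.092 in controls, Ehmt2 0.0082 over the days under the Jmjd2a label, Cbx1 and Cbx3 -0.068 and -0.0087 for its difference of changes, and Jmjd2a against Jmjd2c -0.0063 for Cbx3 at day 1 and -0.037 for Cbx5 at day 3. With median centring the control changes were -0.0023 for Cbx1 and -0.032 for Trim28. With the mean of all probe sets Cbx1 read -0.11 at day 1 under the Jmjd2a label, 0.16 at day 3 under the Jmjd2c label and -0.16 in controls, Trim28 0.16 at day 3 under the Jmjd2a label and -0.19 in controls (adjusted p = 0.0332, limma, the one of these that passed), Ehmt2 0.073 over the days under the Jmjd2a label, and Suv39h2 0.0012 between the labels at day 3. Quantile normalization also moved the share of calls that were higher over the days under the Jmjd2c label from 37.9% to 49.3%.

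With arrays left out in turn, further differences crossed 0. At day 1 under the Jmjd2a label the ranges were -0.022 to 0.037 for Cbx1, -0.095 to 0.24 for Ehmt1. In controls over the days the ranges were -0.12 to 0.12 for Trim28, -0.072 to 0.17 for Setdb2, -0.016 to 0.083 for Cbx1, -0.15 to 0.022 for Cbx3. For the Jmjd2a difference of changes the range was -0.046 to 0.097 for Cbx1. Over the days under the Jmjd2a label the ranges were -0.29 to 0.043 for Ehmt1, -0.16 to 0.12 for Ehmt2, -0.060 to 0.16 for Cbx3, -0.013 to 0.13 for Cbx1. Between the labels at day 1 the ranges were -0.077 to 0.16 for Suv39h2, -0.076 to 0.041 for Setdb2, -0.26 to 0.071 for Ehmt1, -0.25 to 0.033 for Ehmt2, -0.11 to 0.11 for Cbx3, -0.036 to 0.075 for Setdb1, -0.012 to 0.19 for Cbx5. At day 3 under the Jmjd2a label the ranges were -0.039 to 0.10 for Cbx1, -0.10 to 0.14 for Setdb2, -0.21 to 0.035 for Trim28. At day 3 under the Jmjd2c label the ranges were -0.0075 to 0.23 for Trim28, -0.082 to 0.017 for Cbx1, -0.032 to 0.14 for Cbx3. Between the labels at day 3 the ranges were -0.0064 to 0.14 for Cbx1, -0.033 to 0.053 for Cbx5. The cause of these shifts was not tested.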
